A study of Mus musculus with 12 samples.

Results

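The genes described here are those of the class I major histocompatibility complex (MHC) molecule of the mouse: its light chain, B2m, and 9 heavy chain genes, H2-K1, H2-D1, H2-Q4, H2-Q6, H2-Q7, H2-T22, H2-T23, H2-T24 and H2-M3. They were taken by gene symbol from a deposited table of 57180 genes, in which each of the 10 symbols stood once. The study sequenced RNA of 2 cultured mouse tumour lines, KPC, labelled as pancreatic ductal adenocarcinoma, and MB49, labelled as bladder cancer, both with the genotype WT. Each line had 3 libraries from cells given 8 Gy of radiation and 3 from controls, and the treated cells were grown for a further 48 h. How long the controls were cultured is not given, so culture time and dose cannot be told apart. The treatment protocol mentions senescent and other cells, while each library is labelled only as control or 8 Gy.

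Class I molecules are made by almost all nucleated cells. A heavy chain pairs with B2m in the endoplasmic reticulum, takes up a short peptide that the proteasome cut and the TAP transporter carried in, and moves to the cell surface, where CD8 T cells read it. In the mouse, H2-K1 and H2-D1 are classical heavy chains, which show peptides to CD8 T cells in most tissues, and the H2-Q, H2-T and H2-M genes are non-classical, with narrower or other partners. Interferons are well known to raise these genes through IRF1 and the coactivator NLRC5, among others.

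The 12 libraries held 19006015 to 26337950 estimated counts. Levels are given as CPM, the usual library-scaled count with TMM factors, and as CPM per kilobase of the deposited gene length where genes are compared with each other. Fold changes are log2 values with their standard errors from edgeR's quasi-likelihood test, and calls were made below 0.05 after Benjamini-Hochberg adjustment over 14362 genes. Separate cultures are not stated for the 3 libraries of a group. The p-values therefore measure only the spread among those libraries, which may be technical. In bulk RNA, more cells that express a gene and more RNA per cell cannot be told apart. Krt19, a ductal keratin gene, averaged 80.63 ± 12.9 CPM in control KPC cells, against 3.851 ± 2.47 CPM in control MB49 cells (SD, n = 3 each). Of 8 pancreatic duct markers, 6 were tested, of which 4 were higher and 1 (Muc1) lower in KPC controls than in MB49 controls. Among all genes, 33% were higher and 34.4% lower there. Cftr and Onecut1 had 0 counts in KPC. Of 8 urothelial markers, 3 were tested. The uroplakin genes Upk1b, Upk2, Upk3a and Upk3b, which mark bladder surface epithelium, had 0 counts in MB49 controls, Upk1a had 19, and Gata3 was at 14.21 ± 1.81 CPM in MB49 controls, near the 16.34 ± 2.18 CPM of KPC controls. In KPC control replicate 1, 5.11% of counts fell on the 18S ribosomal RNA gene Rn18s-rs5, against at most 0.547% in any other library. In MB49 control replicate 3, 9 of 20 leukocyte markers and 0 of 8 fibroblast and endothelial markers were at 0, against 14 leukocyte markers and 3 or 4 of the others in the other MB49 controls.

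Promoters of these genes were searched for the letters of short elements through which interferon and NF-kB are known to act. Their sequences are shown because the genes differ in role and in response. RefSeq promoter sequence (build GRCm38.p6, a window before and just past each gene's start) was at hand for 9 of the 10 genes, all but H2-T24. Each line below gives 90 bases around the element most like an interferon-stimulated response element, 5′ to 3′ on the gene's own strand. The window of H2-Q6 is not shown. Capitals mark matches to TTTCACTTC or TTTCNNTTT, forms of that element, and to GGGGATTCC, a kappa B site.
H2-K1: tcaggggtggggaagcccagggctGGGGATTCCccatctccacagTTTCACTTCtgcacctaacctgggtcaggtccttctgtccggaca
H2-D1: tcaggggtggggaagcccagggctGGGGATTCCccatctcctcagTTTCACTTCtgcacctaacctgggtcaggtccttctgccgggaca
H2-Q4: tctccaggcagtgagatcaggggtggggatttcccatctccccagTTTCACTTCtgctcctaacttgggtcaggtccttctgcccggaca
H2-Q7: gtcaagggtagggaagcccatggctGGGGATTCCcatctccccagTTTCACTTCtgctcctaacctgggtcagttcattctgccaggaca
H2-M3: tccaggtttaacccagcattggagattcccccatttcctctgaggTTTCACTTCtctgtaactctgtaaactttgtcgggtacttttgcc
H2-T22: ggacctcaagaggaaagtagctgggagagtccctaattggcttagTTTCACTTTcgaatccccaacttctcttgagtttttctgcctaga
H2-T23: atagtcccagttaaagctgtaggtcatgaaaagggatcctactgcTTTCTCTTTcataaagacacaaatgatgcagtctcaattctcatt
B2m: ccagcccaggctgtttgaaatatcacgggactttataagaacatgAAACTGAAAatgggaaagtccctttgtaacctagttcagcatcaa

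In GRCm38.p6 these windows lie at chr17:34000393-34000482 on the minus strand for H2-K1 and at chr17:35262899-35262988 on the plus strand for H2-D1. Those of H2-Q4, H2-Q7 and H2-M3 lie on the plus strand at chr17:35379419-35379508, chr17:35438997-35439086 and chr17:37270088-37270177. H2-T22 and H2-T23 lie on the minus strand, at chr17:36042889-36042978 and chr17:36032781-36032870. B2m stands on another chromosome, at chr2:122147504-122147593 on the plus strand. On both strands of the full promoters, TTTCACTTC was found in 6 of the 9 (H2-K1, H2-D1, H2-Q4, H2-Q6, H2-Q7 and H2-M3), against 0.505% of 32851 promoters. GGGGATTCC was found in 4 of the 9 (H2-K1, H2-D1, H2-Q6 and H2-Q7), against 0.25% of all promoters. The looser TTTCNNTTT was found in H2-T22, H2-T23 and, read on the opposite strand, B2m, against 10.6% of all promoters. TGACG, part of a cyclic AMP response element, stood in 7 of the 9 and in 20.8% of all promoters, and CCAAT stood in 9 of the 9 and in 37.4% of all promoters. None of these matches overlapped another. A match is a description of letters, not evidence of a bound site.

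The first comparisons ask how class I transcripts stood after radiation in each line. In irradiated KPC cells 9 of the 10 genes rose and 0 fell, where 31.3% of all genes tested rose and 32% fell. In irradiated MB49 cells 9 of the 10 rose and 0 fell, where 35.3% of all genes rose and 31.6% fell. The genes without a call were H2-Q6 in KPC, which was at or near 0 there and passed the filter on low counts only through MB49, and H2-T24 in MB49. Over the 9 genes other than H2-Q6, the median change was 2.32 in KPC, against -0.01 over all genes. In MB49 it was 2.65 over the same 9 genes, against 0.04 over all genes. Scaled by library totals alone, the median of all genes moved to -0.39 in KPC and -0.23 in MB49, genes higher and lower numbered 3086 and 6620 in KPC and 3821 and 5850 in MB49, and the 9 rises in each line were still called. In the main scaling those numbers were 4490 and 4596 in KPC and 5066 and 4540 in MB49.

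**Figure D1:**
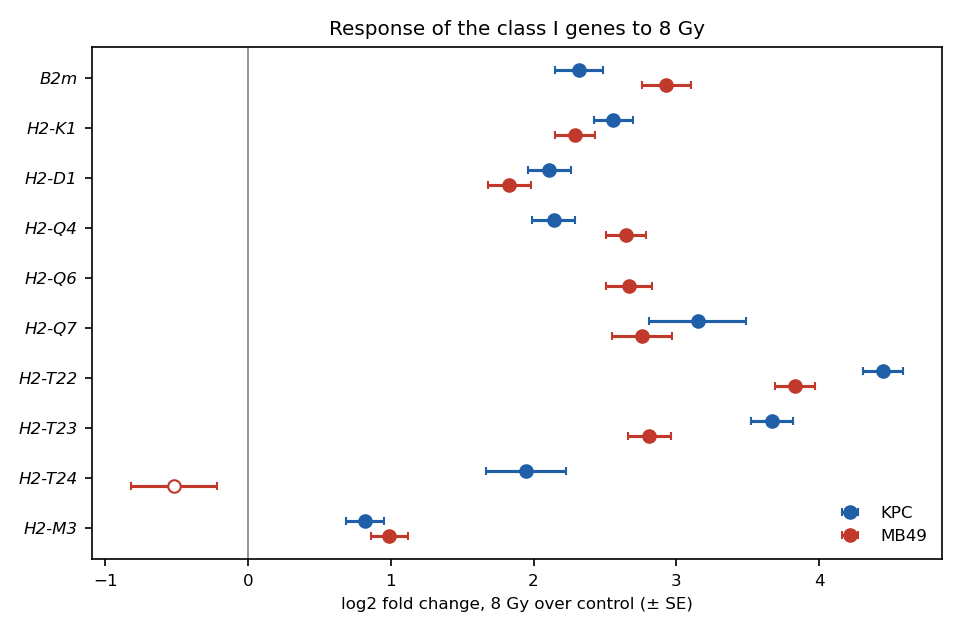
Log2 fold change of 8 Gy over control (horizontal axis, ± SE) for each of the 10 genes in KPC (blue) and MB49 (red); filled points passed the test, open points did not, and H2-Q6 is not drawn for KPC, where it was at or near 0. H2-T22 lies farthest right in both lines, and H2-T24 lies on opposite sides of 0 in the 2 lines.

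H2-K1, one of the classical heavy chains, had 2982, 2786 and 3022 CPM in irradiated KPC cells, against 524.6, 506.8 and 462.9 CPM in KPC controls. MB49 libraries had 1572, 1684 and 1458 CPM after 8 Gy, against 310, 268.1 and 384.8 CPM in controls. The irradiated libraries lay above the controls in both lines with a wide gap. H2-K1 rose by 2.56 ± 0.14 in KPC (adjusted p = 8.73e-11) and by 2.29 ± 0.14 in MB49 (adjusted p = 2.66e-10), 5.88-fold and 4.9-fold.

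H2-D1, the other classical heavy chain, was the most abundant of the 10 by CPM. It had 4185, 3940 and 4373 CPM in irradiated KPC cells, against 1031, 975.7 and 882.3 CPM in KPC controls. In MB49 it had 3072, 3402 and 2673 CPM after 8 Gy, against 825.1, 705.1 and 1044 CPM in controls. No irradiated library reached down to a control of its line, and MB49 control replicate 3 was the highest control of all 6. The rise was 2.11 ± 0.15 in KPC (adjusted p = 2.37e-09) and 1.83 ± 0.15 in MB49 (adjusted p = 1.15e-08), smaller in log2 terms than that of H2-K1 in both lines.

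H2-T22, a non-classical heavy chain recognised by a subset of gamma delta T cells, moved most. It had 1168, 1104 and 1214 CPM in irradiated KPC cells, against 56.41, 54.97 and 47.69 CPM in KPC controls. After 8 Gy, MB49 had 361.4, 369.3 and 301.1 CPM, against 25.55, 21.79 and 25.35 CPM in controls. The lowest irradiated library stood far above the highest control in each line. The rise was 4.45 ± 0.14 in KPC (21.9-fold, adjusted p = 5.95e-14) and 3.83 ± 0.14 in MB49 (14.2-fold, adjusted p = 4.79e-13). In rank of log2 change H2-T22 was 271 of 14362 genes in KPC and 348 in MB49.

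H2-T23 encodes Qa-1, which shows leader peptides of classical heavy chains to inhibitory NKG2A receptors on natural killer and CD8 T cells. It had 960, 887.7 and 1037 CPM in irradiated KPC cells, against 79.49, 78.19 and 68.64 CPM in KPC controls. In MB49 it had 340.2, 386.1 and 355.7 CPM after 8 Gy, against 47.08, 43.8 and 63.76 CPM in controls. Groups did not overlap in either line, and irradiated KPC cells stood above irradiated MB49 cells. It rose by 3.67 ± 0.15 in KPC (12.7-fold, adjusted p = 2.06e-12) and by 2.81 ± 0.15 in MB49 (7-fold, adjusted p = 4.1e-11).

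H2-Q4, H2-Q6 and H2-Q7 set the lines apart. H2-Q4, a heavy chain of the Qa group, had 58.73, 54.54 and 60.81 CPM in irradiated KPC cells, against 12.51, 13.68 and 13.33 CPM in KPC controls. Irradiated MB49 cells had 173.2, 193.5 and 191.7 CPM, against 26.95, 24.56 and 37.8 CPM in MB49 controls. It rose in both lines with no overlap, by 2.14 ± 0.15 in KPC (adjusted p = 1.2e-09) and by 2.65 ± 0.14 in MB49 (adjusted p = 6.35e-11), and each MB49 group stood above the KPC group of the same treatment.

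H2-Q6 and H2-Q7 are closely related genes of the Qa-2 group. H2-Q6 had 0, 0 and 0.05773 CPM in the irradiated KPC libraries, against 0 in each KPC control, so no fold change is given for that line. Irradiated MB49 cells had 54.12, 52.49 and 45.47 CPM, against 8.162, 7.322 and 8.372 CPM in MB49 controls, a rise of 2.67 ± 0.16 (adjusted p = 1.05e-09). H2-Q6 was thus read in each MB49 library and in 1 of the 6 KPC libraries. H2-Q7 had 3.278, 2.185 and 4.343 CPM in irradiated KPC cells, against 0.173, 0.5913 and 0.305 CPM in KPC controls. In MB49 it had 85.84, 90.55 and 79.07 CPM after 8 Gy, against 12.8, 10.41 and 14.54 CPM in controls. It rose by 3.15 ± 0.34 in KPC (adjusted p = 3.83e-07) and by 2.76 ± 0.21 in MB49 (adjusted p = 3.46e-09), the KPC value resting on 4.16 to 15.81 estimated counts per control library. Without KPC control replicate 2, the highest of these, the KPC rise was 3.79 (adjusted p = 5.05e-07).

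H2-T24 was among the least abundant of the 10 genes, and its response differed most between the lines among those called. It had 13.79, 11.53 and 11.95 CPM in irradiated KPC cells, against 2.079, 3.078 and 4.45 CPM in KPC controls, a rise of 1.95 ± 0.28 (adjusted p = 9.3e-06). In MB49 it had 3.163, 1.928 and 2.238 CPM after 8 Gy, against 4.61, 3.627 and 2.125 CPM in controls, a change of -0.52 ± 0.30 that was not called (adjusted p = 0.134). The MB49 groups overlapped because control replicate 3 lay among the irradiated libraries. Without that library the change was -0.77 (adjusted p = 0.0193), with no filter on low counts it was -0.64 (adjusted p = 0.0206), and with totals-only scaling it was -0.81 (adjusted p = 0.0338), each past the threshold.

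H2-M3, which shows N-formylated peptides such as those of bacteria and mitochondria, moved least among the genes that rose. It had 26.73, 26.53 and 27.61 CPM in irradiated KPC cells, against 15.68, 16.68 and 13.43 CPM in KPC controls. MB49 libraries had 46.01, 56.15 and 49.14 CPM after 8 Gy, against 24.51, 22.27 and 29.58 CPM in controls. The groups did not overlap in either line. The rises were 0.82 ± 0.13 in KPC (adjusted p = 4.5e-05) and 0.99 ± 0.13 in MB49 (adjusted p = 4.15e-06), below 2-fold in both.

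**Figure D2:**
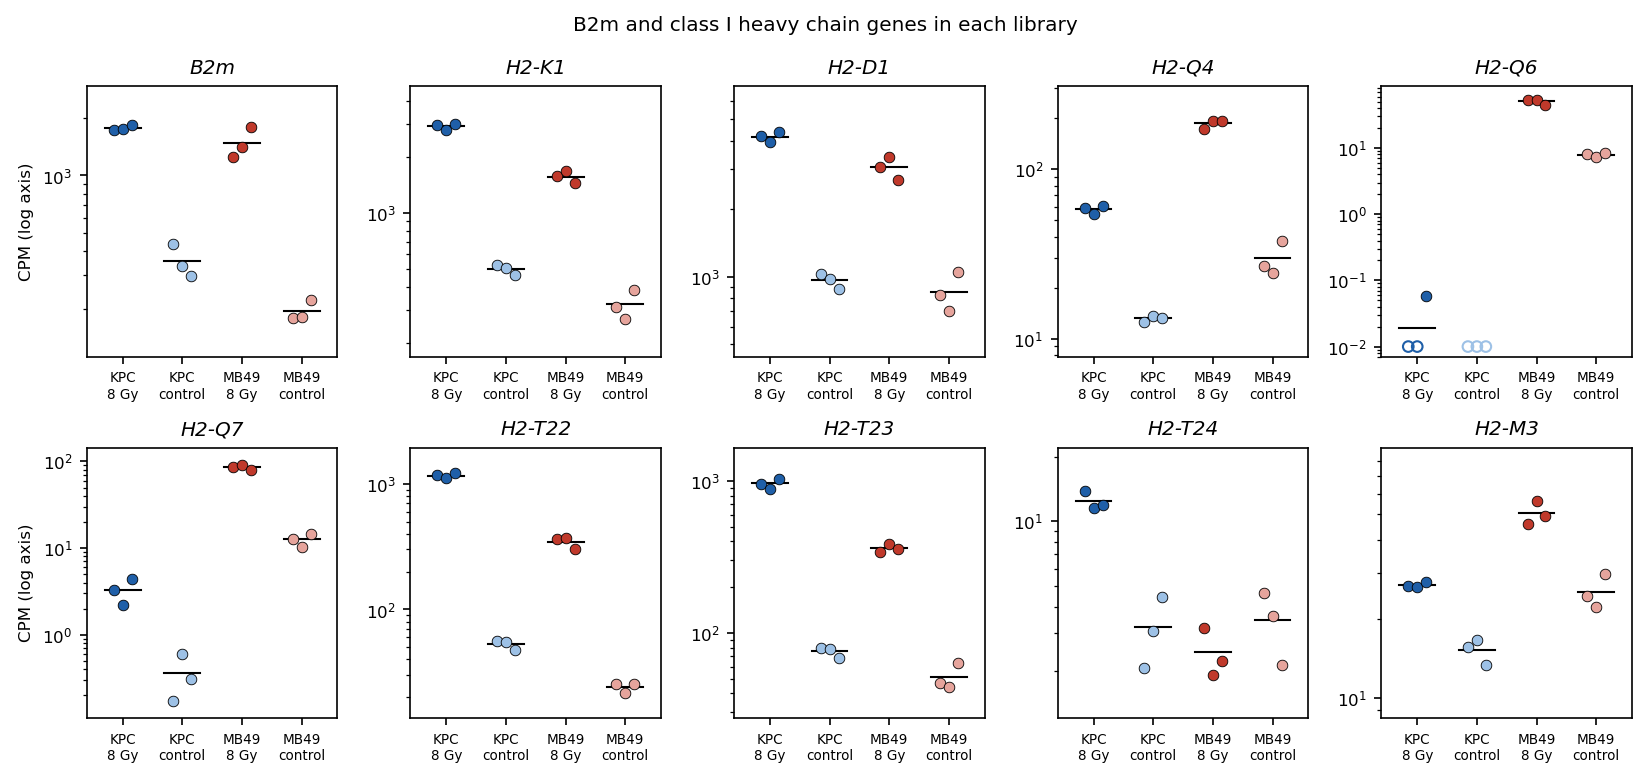
CPM on a log axis in each library (points) and the group mean (line) for each of the 10 genes, in irradiated KPC, KPC control, irradiated MB49 and MB49 control from left to right; open points are libraries with 0 counts, drawn at 0.01. H2-Q6 is at or near 0 in KPC, and H2-T24 is the panel in which the MB49 groups overlap.

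B2m, the light chain shared by all these heavy chains, had 1738, 1753 and 1840 CPM in irradiated KPC cells, against 438.3, 334.3 and 298.5 CPM in KPC controls. In MB49 it had 1248, 1408 and 1795 CPM after 8 Gy, against 179.5, 180.7 and 222.9 CPM in controls. Irradiated libraries lay above controls throughout, and irradiated MB49 replicate 3 was well above the other irradiated MB49 libraries. The rise was 2.32 ± 0.17 in KPC (adjusted p = 2.44e-09) and 2.93 ± 0.17 in MB49 (adjusted p = 1.44e-10). B2m has a deposited length of 860 bases and thus falls in the shortest of 8 length classes, 132 to 1144 bases, whose 1796 genes had a median change of -0.06 in KPC and 0.64 in MB49. The heavy chain genes lie in the classes of 1145 to 1674 bases, with medians of 0.00 in KPC and 0.34 in MB49, and 1675 to 2175 bases, with medians of -0.02 and 0.06 in those lines, and H2-T24 alone in the next. The part of length in the B2m values was not tested.

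B2m was also set against the summed heavy chains, both per kilobase. In KPC the ratio was 0.36, 0.387 and 0.367 after 8 Gy, against 0.5, 0.397 and 0.392 in controls, a log2 difference of -0.20 (exact permutation test, 2-sided, p = 0.1). In MB49 it was 0.429, 0.443 and 0.681 after 8 Gy, against 0.275, 0.322 and 0.273 in controls, a difference of 0.81 (exact permutation test, p = 0.1). Groups did not overlap in either line, but 0.1 is the smallest p that 3 libraries against 3 allow, so no such difference could pass 0.05. The KPC value was -0.09 without control replicate 1 and turned to 0.04 (exact p = 0.8) when only H2-K1 and H2-D1 were summed. Of 6 ratios and shares given this exact test, 5 had p = 0.1, or 0.12 after Benjamini-Hochberg adjustment over the 6.

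**Figure D3:**
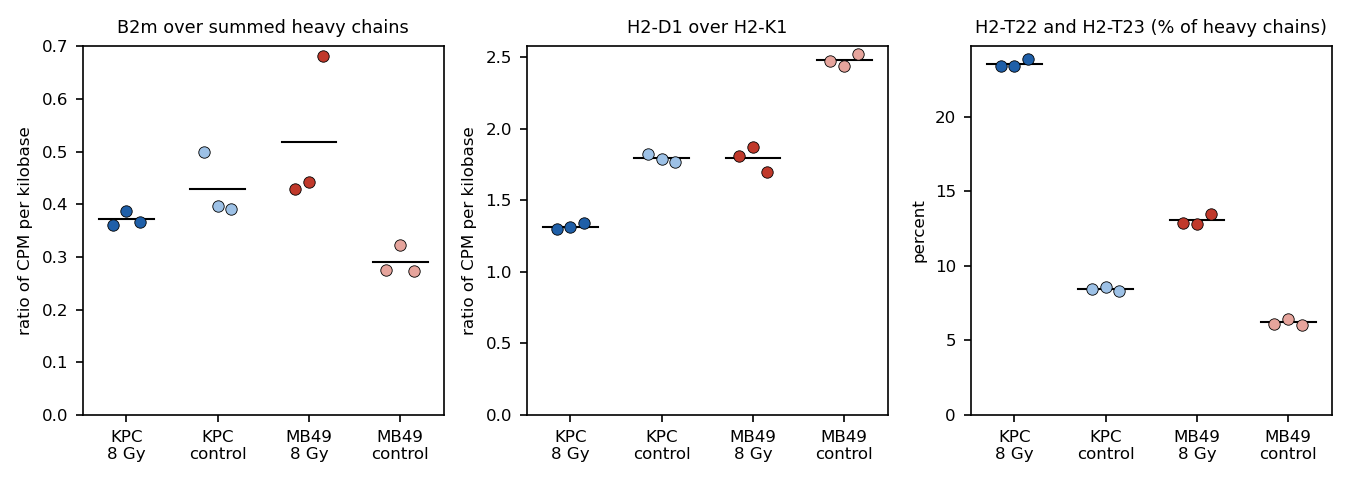
Ratio of B2m to the summed heavy chains (left), ratio of H2-D1 to H2-K1 (middle) and percent of the summed heavy chain level in H2-T22 and H2-T23 (right), all from CPM per kilobase, with 1 point per library and the group mean as a line. After 8 Gy the ratio of H2-D1 to H2-K1 is lower and the share of H2-T22 and H2-T23 higher in both lines, while B2m against heavy chains is lower in KPC and higher in MB49.

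Among the heavy chain transcripts, the share of H2-D1 was lower and those of H2-T22 and H2-T23 higher after 8 Gy in each line, at the smallest exact p the design allows or untested. Summed over the 9 heavy chains, levels per kilobase were 5265 to 5829 in irradiated KPC libraries, against 884.5 to 1020 in KPC controls, and 3063 to 3696 in irradiated MB49 libraries, against 653.3 to 950.4 in MB49 controls. H2-D1 made up 42.9 ± 0.149% of this sum in irradiated KPC cells, against 57.4 ± 0.425% in KPC controls, and 51.6 ± 1.41% in irradiated MB49 cells, against 62.4 ± 0.551% in MB49 controls (SD, n = 3; exact permutation p = 0.1 in each line). The share of H2-K1 was 32.5 ± 0.419% in irradiated KPC cells and 32 ± 0.277% in KPC controls (exact permutation p = 0.2), and 28.8 ± 0.628% in irradiated MB49 cells and 25.2 ± 0.174% in MB49 controls (exact permutation p = 0.1). The H2-D1 level was 1.32 ± 0.0212 times that of H2-K1 in irradiated KPC cells, against 1.79 ± 0.0277 in KPC controls, and 1.8 ± 0.0874 times in irradiated MB49 cells, against 2.48 ± 0.0386 in MB49 controls.

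H2-T22 and H2-T23 together took 23.6 ± 0.303% of the heavy chain level in irradiated KPC cells, against 8.46 ± 0.148% in KPC controls. In MB49 they took 13.0 ± 0.374% after 8 Gy, against 6.22 ± 0.201% in controls. H2-Q4, H2-Q6 and H2-Q7 took 0.62 ± 0.0134% in irradiated KPC cells and 0.793 ± 0.0875% in KPC controls, and 5.49 ± 0.377% in irradiated MB49 cells and 3.66 ± 0.0347% in MB49 controls. H2-M3, which rose least, held 0.337 ± 0.0117% of the sum in irradiated KPC cells, against 1.1 ± 0.0718% in KPC controls, and 1.04 ± 0.0862% in irradiated MB49 cells, against 2.26 ± 0.104% in MB49 controls. For these shares the library ranges did not overlap between the treatments of a line, and no test was made. H2-T24 held 0.102 ± 0.00943% in irradiated KPC cells and 0.156 ± 0.0693% in KPC controls, which overlapped, and 0.0334 ± 0.00948% in irradiated MB49 cells, against 0.212 ± 0.0956% in MB49 controls.

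**Figure D4:**
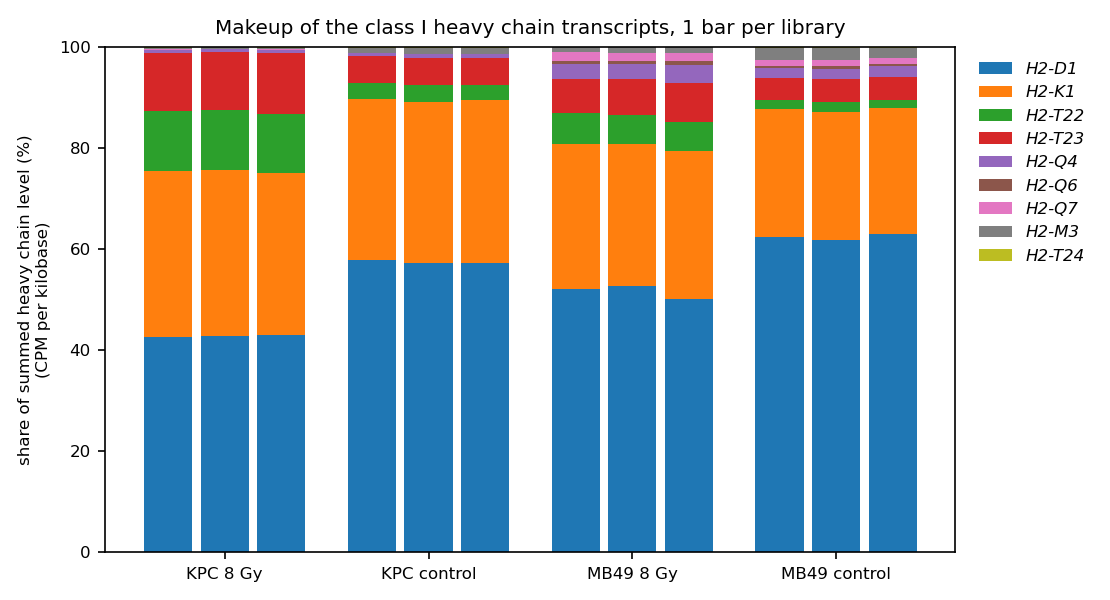
Share of each heavy chain gene in the summed heavy chain level of a library (percent, from CPM per kilobase), 1 bar per library, in irradiated KPC, KPC control, irradiated MB49 and MB49 control from left to right. H2-D1 (blue) takes a smaller and H2-T22 and H2-T23 (green, red) a larger share after 8 Gy, most in KPC.

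By level per kilobase, H2-D1, B2m and H2-K1 led in that order in each of the 4 groups. In irradiated KPC cells H2-D1 had 2389 ± 125, B2m 2066 ± 64.4 and H2-K1 1810 ± 77.7 CPM per kilobase, without overlap, and ranked 26, 34 and 51 of 14362 genes. In KPC controls they had 552.1 ± 43.0, 415.1 ± 84.4 and 307.7 ± 19.6, with the ranges of H2-D1 and B2m overlapping, and ranked 124, 166 and 222. In irradiated MB49 cells they had 1749 ± 209, 1725 ± 327 and 970.5 ± 69.8 CPM per kilobase, where H2-D1 and B2m again overlapped, and ranked 53, 55 and 110. In MB49 controls they had 492 ± 98.5, 226 ± 28.7 and 198.3 ± 36.5, with B2m and H2-K1 overlapping, and ranked 114, 291 and 325. Below them, H2-T22 had 659.9 ± 31.6 and H2-T23 653.2 ± 50.6 CPM per kilobase in irradiated KPC cells, which overlapped. In irradiated MB49 cells H2-T23 had 245 ± 15.9 and H2-T22 195.3 ± 21.2, which did not overlap. In MB49 controls H2-M3, H2-Q4 and H2-T22 had 17.7 ± 2.6, 16.6 ± 3.93 and 13.76 ± 1.2, and each overlapped its neighbour. H2-T24 and H2-Q6 were last or next to last in MB49, and H2-Q7 and H2-Q6 in KPC.

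A further comparison asks whether the response to 8 Gy differed between the lines, as the KPC response minus the MB49 response. Of the 10 genes, 3 had a larger and 2 a smaller log2 response in KPC, where 20.9% of all genes had a larger and 22% a smaller one. The median over the 9 genes other than H2-Q6 was 0.28, against -0.02 over all genes. H2-T24 differed by 2.47 ± 0.41 (adjusted p = 0.000128), H2-T23 by 0.86 ± 0.20 (adjusted p = 0.00201) and H2-T22 by 0.63 ± 0.18 (adjusted p = 0.00813). These H2-T genes kept their calls in each of 19 alternatives. B2m differed by -0.62 ± 0.23 (adjusted p = 0.0355) and H2-Q4 by -0.51 ± 0.20 (adjusted p = 0.0463), both a smaller response in KPC.

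The calls for B2m and H2-Q4 were fragile. That of B2m was lost when any 1 of 7 of the 12 libraries was left out, namely irradiated KPC replicates 1, 2 and 3, KPC control replicate 1, irradiated MB49 replicate 3 and MB49 control replicates 1 and 2. Its difference was -0.34 (adjusted p = 0.224) without KPC control replicate 1, -0.46 (adjusted p = 0.0865) without irradiated MB49 replicate 3 and -0.62 (adjusted p = 0.0538) with the replicate number as a block. In the length class of B2m the median difference over all genes was -0.72, against -0.25 and -0.07 in the classes of most heavy chains. The call for H2-Q4 was lost when any 1 library other than irradiated MB49 replicate 1 or MB49 control replicate 3 was left out, 10 of the 12. H2-K1 (0.26 ± 0.19, adjusted p = 0.281), H2-D1 (0.28 ± 0.21, adjusted p = 0.288), H2-Q7 (0.39 ± 0.41, adjusted p = 0.47) and H2-M3 (-0.17 ± 0.19, adjusted p = 0.502) were not called, and H2-Q6 gave no fold in KPC.

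The lines already differed without radiation. In KPC controls against MB49 controls, 4 of the 10 genes were higher and 4 lower, where 33% of all genes were higher and 34.4% lower. H2-T22 was higher in KPC by 1.13 ± 0.13 (adjusted p = 4.73e-07), B2m by 0.88 ± 0.16 (adjusted p = 0.00012), H2-K1 by 0.63 ± 0.14 (adjusted p = 0.000488) and H2-T23 by 0.55 ± 0.14 (adjusted p = 0.00224). H2-Q7, H2-Q4, H2-M3 and H2-Q6 were lower in KPC. The difference was -5.11 ± 0.30 for H2-Q7 (adjusted p = 1.07e-10), or -5.76 without KPC control replicate 2 (adjusted p = 5.75e-10). It was -1.17 ± 0.14 for H2-Q4 (adjusted p = 1.43e-06) and -0.74 ± 0.13 for H2-M3 (adjusted p = 0.000111). H2-Q6 had 0 counts over the KPC controls and 617.8 over the MB49 controls. Taking 3 counts per group as the floor, it was at least 199-fold lower in KPC. It is among the 4 lower genes, though it passed the filter on low counts only through MB49. The labels do not give the mouse strain of either line, and the part of strain in these differences was not tested. H2-D1 was not called at 0.17 ± 0.15 (adjusted p = 0.327), but was at 0.33 (adjusted p = 0.0486) without MB49 control replicate 3. H2-T24 was not called either (-0.12 ± 0.28, adjusted p = 0.73) and changed sign, to 0.14 without MB49 control replicate 1 and to 0.07 without KPC control replicate 1.

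In irradiated KPC cells against irradiated MB49 cells, 5 of the 10 genes were higher and 4 lower, where 31% of all genes were higher and 33.4% lower. H2-T24 was higher in KPC by 2.35 ± 0.29 (adjusted p = 1.73e-06), H2-T22 by 1.76 ± 0.13 (adjusted p = 1.41e-09), H2-T23 by 1.41 ± 0.14 (adjusted p = 1.16e-07), H2-K1 by 0.90 ± 0.14 (adjusted p = 1.73e-05) and H2-D1 by 0.45 ± 0.15 (adjusted p = 0.0126). H2-Q7 (-4.72 ± 0.24, adjusted p = 1.21e-11), H2-Q4 (-1.68 ± 0.14, adjusted p = 1.08e-08) and H2-M3 (-0.90 ± 0.13, adjusted p = 1.26e-05) were lower. H2-Q6 had 1 count over the irradiated KPC libraries, in replicate 3, and 3005 over the irradiated MB49 libraries. With the same floor of 3 counts per group, it was at least 1020-fold lower in KPC. It is among the 4 lower genes, though it passed the filter on low counts only through MB49. B2m was not called (0.26 ± 0.16, adjusted p = 0.162), but was at 0.42 (adjusted p = 0.0295) without irradiated MB49 replicate 3 and at 0.35 (adjusted p = 0.0364) with no filter on low counts.

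Reads of close relatives may be shared among these genes, which bears on the H2-Q and H2-T values. In annotated mouse transcripts (GENCODE M21), 27.5% of the 75-base windows of H2-Q7 also occurred in another gene, 13.8% in H2-Q6. For H2-T22 it was 26.1%, of which 20.1% in H2-T10, for H2-Q4 21.7%, for H2-Q6 21.1% and for H2-T23 13.1%. H2-D1 shared 7.1%, H2-K1 1.55% and H2-T24 0.474%, while B2m and H2-M3 shared 0. The deposited estimates were whole numbers, within 1e-06 of a count, in all 12 libraries for B2m and H2-M3. They were fractional in 2 libraries for H2-T24, 7 for H2-Q6, 9 for H2-K1 and all 12 for H2-D1, H2-Q4, H2-Q7, H2-T22 and H2-T23. How many reads of each gene came from a relative was not tested.

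The machinery that feeds peptides to class I rose with them in both lines. Of 8 genes of peptide transport and loading, 8 rose in KPC (median 2.60) and 8 in MB49 (median 2.23). Among all genes, 31.3% rose in KPC (median -0.01) and 35.3% in MB49 (median 0.04). Tap1, a chain of the peptide transporter, was at 803.5 ± 77.5 CPM in irradiated KPC cells, against 59.62 ± 1.31 CPM in KPC controls (3.75 ± 0.15, adjusted p = 1.07e-12). In MB49 it was at 1205 ± 186 CPM after 8 Gy, against 28.68 ± 3.06 CPM in controls (5.39 ± 0.16, adjusted p = 6.18e-14). Its partner chain Tap2 rose by 2.42 ± 0.13 in KPC and 2.99 ± 0.14 in MB49. Tapbp, the tapasin that bridges the transporter and the heavy chain, rose by 3.68 ± 0.15 and 2.72 ± 0.15 in those lines. Tapbpl, a peptide editor related to tapasin, rose by 4.27 ± 0.15 in KPC, with 142 ± 10.3 CPM after 8 Gy against 7.341 ± 0.868 CPM in controls, and by 1.96 ± 0.13 in MB49, with 115.1 ± 9.7 CPM against 29.57 ± 4.09 CPM.

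The lines differed in the response of 5 of these 8 genes, 2 larger and 3 smaller in KPC, where 20.9% of all genes had a larger and 22% a smaller response. The response of Tapbpl (2.31 ± 0.19, adjusted p = 6.88e-08) and Tapbp (0.96 ± 0.20, adjusted p = 0.000895) was larger in KPC. That of Tap1 (-1.64 ± 0.19, adjusted p = 4.4e-06), Tap2 (-0.57 ± 0.18, adjusted p = 0.0175) and the chaperone gene Canx (-0.57 ± 0.19, adjusted p = 0.0245) was smaller. Erap1, which trims peptides to length, rose by 2.77 ± 0.17 in KPC and 2.50 ± 0.17 in MB49. The chaperone genes Calr (1.71 ± 0.12 in KPC, 1.61 ± 0.12 in MB49), Pdia3 (1.56 ± 0.15 and 1.66 ± 0.15) and Canx (0.35 ± 0.14 and 0.92 ± 0.14) rose less.

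Of 6 immunoproteasome genes, 5 rose in KPC (median 4.47) and 6 in MB49 (median 3.56), where 31.3% and 35.3% of all genes rose. Psmb9, a catalytic subunit, was at 115.2 ± 2.05 CPM in irradiated KPC cells, against 1.498 ± 0.482 CPM in KPC controls (6.26 ± 0.23, adjusted p = 3.02e-13). In MB49 it was at 87.67 ± 7.77 CPM after 8 Gy, against 0.4327 ± 0.274 CPM in controls (7.71 ± 0.26, adjusted p = 2.63e-13). The catalytic subunit genes Psmb8 (5.13 ± 0.16 in KPC, 6.14 ± 0.17 in MB49) and Psmb10 (4.58 ± 0.17 and 3.56 ± 0.16) rose with it. So did the activator gene Psme1 (4.35 ± 0.14 and 3.56 ± 0.14). Its partner Psme2 rose in both, with 423.9 ± 8.84 CPM in irradiated KPC cells against 92.25 ± 13.4 CPM in KPC controls, and 505.5 ± 52.6 CPM in irradiated MB49 cells against 63.4 ± 16.3 CPM in MB49 controls. Pomp, which helps assemble the proteasome, rose in MB49 (1.98 ± 0.20, adjusted p = 2.38e-07) and stood at 0.18 ± 0.20 in KPC (adjusted p = 0.428).

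**Figure D5:**
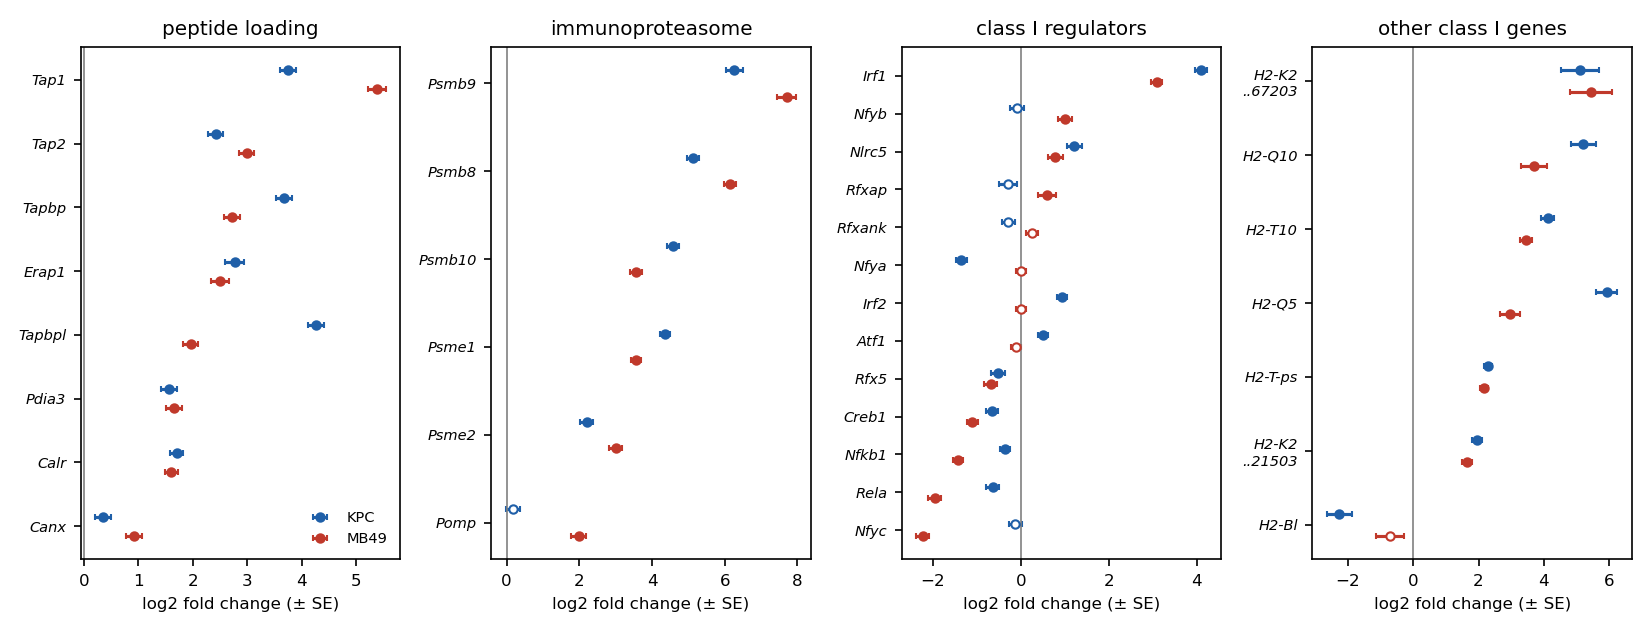
Log2 fold change of 8 Gy over control (horizontal axes, ± SE) in KPC (blue) and MB49 (red) for genes of peptide loading, the immunoproteasome, transcriptional regulators of class I and class I genes outside the 10; filled points passed the test. Loading and immunoproteasome genes lie right of 0, regulators lie on both sides with Irf1 far right, and the 2 H2-K2 entries are separate gene identifiers.

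Genes of the factors that act on class I promoters did not share a direction. Of 13, 4 rose and 5 fell in KPC (median -0.28), and 4 rose and 5 fell in MB49 (median 0.00). These counts are near the shares over all genes, where 31.3% rose and 32% fell in KPC and 35.3% rose and 31.6% fell in MB49. Irf1, an interferon-induced activator, rose by 4.10 ± 0.13 in KPC, to 2347 ± 41.2 CPM against 137.3 ± 6.44 CPM in controls, and by 3.09 ± 0.12 in MB49, to 1297 ± 128 CPM against 152.7 ± 9.59 CPM. Nlrc5, the class I coactivator, rose by 1.22 ± 0.17 in KPC, with 41.34 ± 3.75 CPM after 8 Gy and 17.78 ± 4.62 CPM in controls (adjusted p = 8.08e-06). In MB49 Nlrc5 rose by 0.78 ± 0.17, with 71.93 ± 3.47 CPM after 8 Gy and 41.95 ± 7.01 CPM in controls (adjusted p = 0.000519). Rfx5, whose protein recruits NLRC5 to the promoter, fell by 0.52 ± 0.16 on the log2 scale in KPC and by 0.68 ± 0.15 in MB49 (adjusted p = 0.0078 and 0.000735). Rela, an NF-kB subunit gene, fell by 0.64 ± 0.15 in KPC and by 1.95 ± 0.15 in MB49 (adjusted p = 0.00115 and 5.55e-09).

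Transcripts of the interferon genes looked at were scarce, and other interferon genes were not looked at. Over 10 interferon genes the irradiated KPC libraries held 11 counts, against 1 in KPC controls, and the irradiated MB49 libraries held 1, against 2 in MB49 controls. Ifnb1, the type I interferon made by most cell types, had 10 of these counts in irradiated KPC cells, against 1 in KPC controls, and 1 in irradiated MB49 cells, against 0 in MB49 controls. Ifng, made mainly by T and natural killer cells, had 0 counts in each group. Ifna1, Ifna2, Ifna5, Ifnk and Ifnl3 had 0 counts in each group, Ifna4 and Ifne had 1 count each in MB49 controls, and Ifnl2 had 1 in irradiated KPC cells. Of 6 interferon receptor genes tested, 4 rose and 0 fell in KPC, where 31.3% of all genes rose and 32% fell. In MB49, 2 rose and 2 fell, near the shares over all genes (35.3% rose, 31.6% fell). Ifnar2, a type I receptor chain, rose in KPC (111.2 ± 1.33 CPM after 8 Gy, 59.57 ± 7.36 CPM in controls) and in MB49 (61.08 ± 3.47 CPM after 8 Gy, 32.88 ± 2.57 CPM in controls), with adjusted p = 2.42e-06 and 2.8e-06. Ifngr2, the signalling chain of the interferon gamma receptor, rose in both lines (0.52 ± 0.11 in KPC, 0.43 ± 0.11 in MB49; adjusted p = 0.000365 and 0.00211). Its ligand-binding partner Ifngr1 stood at 0.14 ± 0.10 in KPC (adjusted p = 0.232) and fell by 0.88 ± 0.10 in MB49 (adjusted p = 7.12e-07). Of the others, Ifnar1 (0.30 ± 0.12, adjusted p = 0.0342) and Il10rb (0.35 ± 0.12, adjusted p = 0.0171) rose in KPC but were not called in MB49 (0.27 ± 0.12 and -0.03 ± 0.12). Ifnlr1 fell by 0.36 ± 0.16 in MB49 (adjusted p = 0.0499), with 0.41 ± 0.25 in KPC (adjusted p = 0.189).

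Other class I genes were sought by symbols starting with H2-Q, H2-T, H2-M, H2-K, H2-D, H2-L or H2-Bl, and most had few or no counts. Genes with other symbols were not sought. Of 24 table entries with such symbols, 7 had enough counts to be tested, and none of the other 17 had more than 31 counts over all libraries. Of the 7, 6 rose and 1 fell in KPC (median 4.12), and 6 rose and 0 fell in MB49 (median 2.97). H2-Q5, H2-Q10 and 1 of the 2 H2-K2 entries would not have passed the filter on low counts without the irradiated libraries. Their rises in these tallies and medians were therefore favoured by the filter. Among all genes, 31.3% rose and 32% fell in KPC, and 35.3% rose and 31.6% fell in MB49. H2-T10, a close relative of H2-T22, had 22.13 ± 0.301 CPM in irradiated KPC cells, against 1.258 ± 0.283 CPM in KPC controls (4.12 ± 0.20), and 14.18 ± 2.26 CPM in irradiated MB49 cells, against 1.29 ± 0.164 CPM in MB49 controls (3.46 ± 0.19). H2-Q10, known in mice as a secreted heavy chain of the liver, had 800 counts over the irradiated KPC libraries, against 27 over the KPC controls (5.21 ± 0.38), and 271 over the irradiated MB49 libraries, against 27 over the MB49 controls (3.70 ± 0.39). H2-Q5 rose by 5.92 ± 0.33 in KPC and by 2.97 ± 0.31 in MB49, a difference of 2.95 ± 0.51 between the lines (adjusted p = 0.000223). These values rest on 11 counts over the KPC controls and 24 over the MB49 controls, against 560 and 146 after 8 Gy. Between the irradiated groups, H2-Q5 (1.91 ± 0.24, adjusted p = 1.86e-06) and H2-Q10 (1.55 ± 0.29, adjusted p = 0.000158) were higher in KPC than in MB49. Between the controls neither was called (-1.04 ± 0.46, adjusted p = 0.0534, and 0.04 ± 0.51, adjusted p = 0.952). The pseudogene H2-T-ps rose by 2.28 ± 0.12 in KPC and 2.17 ± 0.13 in MB49. The 2 entries named H2-K2 rose by 1.95 ± 0.16 and 5.10 ± 0.59 in KPC and by 1.65 ± 0.15 and 5.44 ± 0.63 in MB49. The larger changes rest on 7 counts over the KPC controls and 4 over the MB49 controls, against 177 and 147 after 8 Gy. H2-Bl fell by 2.26 ± 0.38 on the log2 scale in KPC, with 43 counts after 8 Gy and 257 in controls (adjusted p = 5.42e-05), and stood at -0.71 ± 0.42 in MB49, with 34 counts after 8 Gy and 72 in controls (adjusted p = 0.142).

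Of 9 genes of class I-like molecules, 6 were tested. In KPC 4 of these rose and 0 fell, where 31.3% of all genes rose and 32% fell. In MB49 5 rose and 0 fell, where 35.3% of all genes rose and 31.6% fell. Over the 5 genes other than Azgp1, which had 0 counts in KPC, the median was 0.70 in KPC and 1.42 in MB49. Procr, the endothelial protein C receptor, rose by 1.54 ± 0.11 in KPC and 2.05 ± 0.11 in MB49. The neonatal Fc receptor gene Fcgrt rose by 0.70 ± 0.14 in KPC and 0.89 ± 0.15 in MB49, and Hfe, a regulator of iron uptake, by 0.50 ± 0.14 and 1.42 ± 0.14. Both products pair with B2m, as does that of Mr1, which shows vitamin B metabolites to MAIT cells. Mr1 had 12.46 ± 1.71 CPM in irradiated KPC cells and 10.67 ± 0.334 CPM in KPC controls (0.22 ± 0.19, adjusted p = 0.309), and in MB49 it rose (1.81 ± 0.36, adjusted p = 0.000285), with 46 counts after 8 Gy against 17 in controls. Mill2 rose by 2.80 ± 0.36 in KPC, with 64 counts after 8 Gy against 11 in controls, and by 0.58 ± 0.20 in MB49, and Azgp1 was not called in MB49 (-0.64 ± 0.51, adjusted p = 0.281).

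Markers of leukocytes, which are rich in class I, were read as a list of 20 genes. Of these, 14 had at most 20 counts over the 12 libraries, and the pan-leukocyte gene Ptprc had 1 count in irradiated MB49 libraries and 0 in the other groups. The summed level of the list was 99.6 to 107 CPM in irradiated KPC libraries, against 39.9 to 41 CPM in KPC controls, and 103 to 123 CPM in irradiated MB49 libraries, against 237 to 256 CPM in MB49 controls. Of 6 markers tested, 3 rose and 1 fell in each line. Csf1r passed the filter on low counts only through irradiated KPC cells, and Ly6g and Lyz2 only through irradiated MB49 cells. Their rises in this tally were therefore favoured by the filter. Among all genes, 31.3% rose and 32% fell in KPC, and 35.3% rose and 31.6% fell in MB49. Csf1r (14.6-fold), Cd14 (2.7-fold) and Cd79a (2.09-fold) rose in KPC, and Ly6g (9.98-fold), Lyz2 (3.67-fold) and Cd79a (2.71-fold) rose in MB49, while Flt3 fell in both lines. Apart from Cd14 and Flt3, none of the 20 averaged 10 CPM in any group. The part of such cells in the class I values was not tested. Cd14 was at 96.34 ± 3.99 CPM in irradiated KPC cells and 35.73 ± 0.467 CPM in KPC controls. Flt3 was at 45.82 ± 4.57 CPM in irradiated MB49 cells and 186.9 ± 10.8 CPM in MB49 controls.

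The genes whose log2(CPM + 1) followed the main chains most closely over the 12 libraries were sought among 8691 genes with a mean of at least 10 CPM. For B2m these were the interferon-induced genes Ifitm2 and Bst2, the immunoproteasome gene Psmb8, the proteasome gene Psma5 and the ubiquitin-conjugating enzyme gene Ube2t, with Pearson r of 0.989 to 0.991. For H2-K1 they included Ogfr, Clta, H2-T-ps and Psmd4 (0.996 to 0.998), and for H2-D1 Pstpip1, Neu1, Psmb10, Creld2 and Tbc1d10a (0.993 to 0.998). The 12 points fall into 4 groups and share their library scaling, so these values describe a common pattern over the groups.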

How the data were processed

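Per the labels' protocols, TRIzol-extracted RNA (1 µg per library) went into a stranded Illumina mRNA preparation. The submitters' processing notes name fastp, HISAT2, StringTie and the build GRCm39. The counting tool and its strand setting are not given in the sources used here, so sense and antisense reads may not be separated. The deposited table holds the authors' estimated counts for each gene, unscaled, and a gene length. Rows without a symbol took 0.184 to 0.449% of counts and were kept in the library sizes.

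Estimated counts were rounded to whole numbers, filtered with filterByExpr by group and scaled by TMM (factors 0.829 to 1.18). All 12 libraries entered 1 robust quasi-likelihood model of the 4 groups (edgeR 4.0.16 in R 4.3.3). It had 8 residual degrees of freedom and was tested 2-sided. Standard errors are approximate: the absolute log2 fold change divided by the root of the F statistic. The script was tested on simulated data. DESeq2 1.42.0 was an alternative, and ratios were tested by exact permutation (scipy 1.17.1). The text names the 10 genes, set genes of the pathway lists, and the 5 genes most like B2m, H2-K1 and H2-D1. Pomp, Rela, the leukocyte markers and the label-check genes are named outside that rule, after their values were seen. A gene of the regulator list and a gene most like H2-K1 are not reported here. Members, lists and comparisons were chosen with earlier results of these data known. Annotation came from other builds than the table and was matched by symbol or identifier only.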

Additional observations from a re-analysis of the deposited data

Results flagged for a closer look

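The response to 8 Gy differed between the lines for 5 of the 10 genes by the test of the difference itself, edgeR's quasi-likelihood test of the KPC response minus the MB49 response. The difference was 2.47 for H2-T24, where all 3 irradiated KPC libraries lay above the KPC controls while the MB49 groups overlapped. It was 0.86 for H2-T23 and 0.63 for H2-T22, which rose in all irradiated libraries of both lines. It was -0.62 for B2m and -0.51 for H2-Q4, the calls of which depended on single libraries.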

How the results depend on the processing

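Each of the 9 genes that rose in KPC and the 9 that rose in MB49 kept its call in each of 14 alternatives. The number of genes whose response differed between the lines was 5, but 3 with DESeq2 size factors and 3 with no filter on low counts, and 3 to 5 when each library was left out in turn. The B2m to heavy chain ratio of KPC turned to 0.04 when only H2-K1 and H2-D1 were summed. H2-T24 in KPC against MB49 controls turned to 0.14 and 0.07 without MB49 control replicate 1 and KPC control replicate 1. Over the libraries left out in turn it ranged from -0.42 to 0.14. The cause was not tested.

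As a check on pairing, each library's deviations from its group mean were correlated between same-numbered libraries of different groups. Of 18 such correlations, 3 were over 0.1 (range -0.423 to 0.389). Deviations within a group cancel out, so with 3 libraries a group these values cannot decide whether the replicate numbers paired the libraries. With the replicate number as a block the B2m difference between lines was -0.62 (adjusted p = 0.0538), and no other call among the 10 genes changed. The fit of only the groups compared was not run for the difference between lines, which needs all 12 libraries. Counts near 0 limit H2-Q6 and H2-Q7 in KPC, and 3 libraries a group limit the ratios.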
